A study of Schmidtea mediterranea with 152 samples.

Results

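Muscle cells of the regenerating planarian tail were separated by their reads of wnt11-2, a Wnt ligand gene of the posterior body, and the 2 sets were compared across the rest of the transcriptome. The cells came from midline posterior blastemas of the asexual CIW4 strain of Schmidtea mediterranea, taken 72 hours after transverse amputation of the tail from animals starved for 7 to 14 days. They were Hoechst-stained, sorted singly as non-dividing cells of 2N DNA content, and sequenced as full-length cDNA; the labels call them non-pole muscle cells, with collagen expression found by qPCR. The study's methods describe a qRT-PCR screen in which non-pole muscle had collagen but no wnt1 product; its text counts fewer such blastema cells than the libraries used here, and which of them it kept is not given in the labels. The series also holds non-pole muscle of uninjured tail tips, as well as wnt1-positive posterior pole cells from both conditions. Of 75 blastema non-pole libraries, 6 had under 50000 reads on the transcripts counted here, which left 69 cells. A cell was called positive if wnt11-2 (contig dd_16209 of the transcriptome assembly) made up at least 20 CPM, the unit of reads scaled to all reads of the cell on these transcripts, and negative if it had no wnt11-2 read. This gave 39 positive cells, 22 negative cells and 8 cells in between. All 61 compared cells carry 1 sample label, and the labels give no animal, plate or batch, so the cells are not replicates of a condition and no test between the sets was possible. Intervals below are 95% intervals for counting error only, and reads of amplified cDNA without molecular identifiers are not independent molecules.

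Wnt ligands are secreted glycoproteins that bind Frizzled, Ryk or Ror receptors, and the canonical branch acts through beta-catenin. In planarians Wnt signaling specifies posterior identity: animals with reduced beta-catenin-1 regenerate heads in place of tails. The muscle of the body wall is the main source of this positional information, since muscle cells express Wnt ligands, Wnt inhibitors and other patterning genes in domains along the body axes. At the tail tip itself sits the posterior pole, a few muscle cells that express wnt1, and wnt11-2 is known from the tail tip region around it.

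The study's screen used the primer pairs below, and they are shown because the label of non-pole muscle rests on the collagen and wnt1 products they amplify. They are written 5′ to 3′.
wnt1 forward: gtgacattatgctcaaaggatttcc
wnt1 reverse: acggacagtgtgataacttaaacg
collagen forward: ggtgtacttggagacgttggttta
collagen reverse: ggtctaccttctcttcctggaac

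The split was wide compared with its threshold. Positive cells had 32.9 CPM of wnt11-2 at the lowest, 269 at the median and 1288 at the highest (n = 39), and 35 of the 39 reached 100 CPM. The sets were chosen by these levels, which are given as a description only. The 3 cells just inside the threshold had 32.9, 39.9 and 59.7 CPM, from 2, 6 and 4 reads. The 3 cells just outside it had 19.3, 17.7 and 17.3 CPM, from 8, 6 and 1 reads, so a single read can place a shallow cell on either side. The 8 in-between cells ranged from 4.598 to 19.3 CPM with a median of 14.6. Reads of wnt1 were nearly absent: 1 of 39 positive cells had 1 read, and 2 of 22 negative cells had at most 2. The 5 blastema pole cells had between 639 and 3312 wnt1 reads, and 4 of them had wnt11-2 reads, with a median of 411 CPM over the 5.

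**Figure D1:**
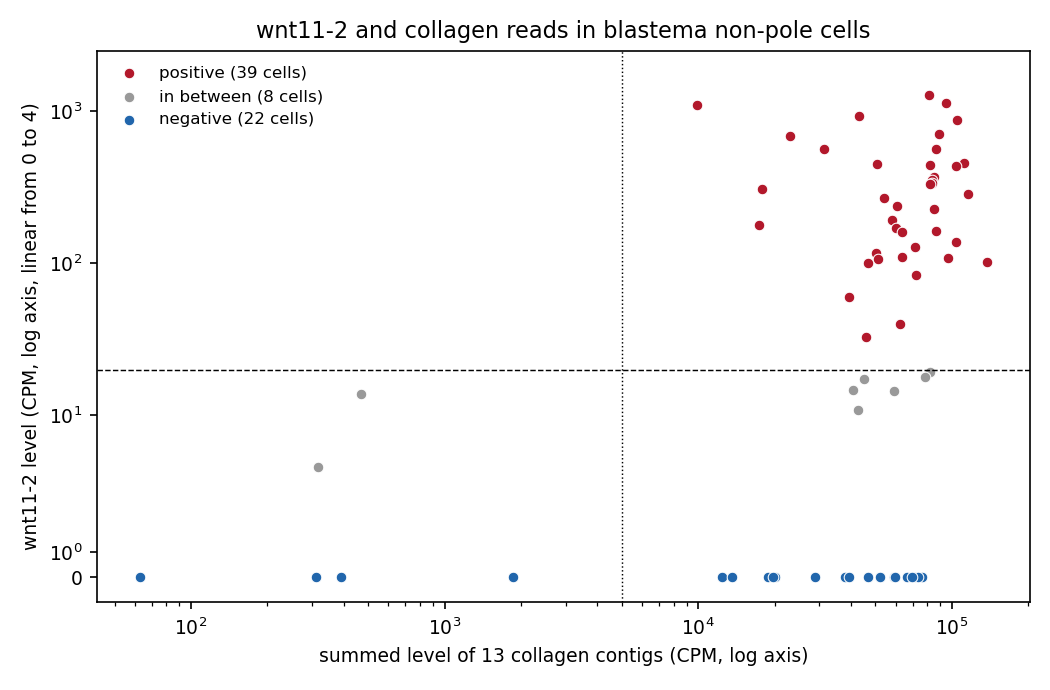
Level of wnt11-2 (CPM, log axis, linear near 0) against the summed level of 13 collagen contigs (CPM, log axis) in each blastema non-pole cell. Positive cells (red, n = 39) all lie above 9857 CPM of collagen, while 4 of the 22 negative cells (blue) and 2 of the 8 in-between cells (grey) lie left of the dotted line at 5000 CPM; the dashed line marks 20 CPM of wnt11-2.

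The sets had similar depth. Positive cells had 51801, 219558 and 1296478 reads at the lowest, median and highest, against 53961, 198420 and 1178594 reads in negative cells. After thinning each cell to 50000 reads, 1400, 3252 and 3989 transcripts were read in positive cells, against 869, 3210 and 4221 in negative cells. The summed depth of 11360658 reads in positive cells and 7282524 in negative cells means that a count of 0 allows up to 0.264 and 0.412 CPM. The share of reads on the mitochondrial contig fell into separate ranges: 11 positive and 5 negative cells had under 5%, and 28 positive and 17 negative cells had at least 13.4%. What sets this share was not tested.

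Collagen and contractile transcripts, the markers of muscle, were abundant in every positive cell but not in every negative one. The 13 collagen contigs summed to between 9857 and 138079 CPM in positive cells, with a median of 71741 CPM, and to between 62.7 and 76045 CPM in negative cells, with a median of 38545 CPM. Negative cells thus reached lower values than any positive cell. The 4 negative cells under 5000 CPM, called collagen-poor from here on, had a median of 351 CPM of collagen and 402 CPM of the 14 contractile contigs. In 3 of these 4, agat-1, a marker of epidermal precursors, was read, with a median of 10318 CPM over the 4. In the positive cells agat-1 reached at most 74.1 CPM and was read in 8 of 39. The other 18 negative cells had 12456, 49314 and 76045 CPM of collagen at the lowest, median and highest, and at most 11.8 CPM of agat-1. Counts over transcripts and medians of lists are therefore also given without the 4 collagen-poor cells, as are the named transcripts whose difference they change.

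Across the transcriptome, 13359 transcripts other than wnt11-2 had at least 20 reads over both sets. Fold changes are of summed CPM, positive over negative, and log2 values carry a pseudocount of 1 CPM, which understates the change of low transcripts. A transcript passed the fold if its log2 value was at least 1 in size: 3267 transcripts (24.5%) were higher and 3717 (27.8%) lower in positive cells. The measure is loose for sparse counts, since 1 cell can carry a summed level. A steady difference was therefore defined as one that also held for the mean of per-cell CPM, had a larger share of cells with a read in the higher set after thinning, and drew no more than 50% of its reads from 1 cell. By this measure 1159 transcripts (8.68%) were higher and 680 (5.09%) lower in positive cells. The bar on single cells is easier to meet in the set with 39 cells than in the set with 22. Without the collagen-poor cells, 1289 of 12487 transcripts (10.3%) were higher and 423 (3.39%) lower. Of the 1159 higher transcripts, 993 (85.7%) still differed steadily without those 4 cells, but only 332 of the 680 lower ones (48.8%) did. The lower side thus rests more on the collagen-poor cells, which is in part built in. All 4 belong to the negative set, which carries the reads of lower transcripts. Without them all 1159 higher transcripts but only 600 of the 680 lower ones had enough reads to be tested. In the 11 positive and 5 negative cells with under 5% mitochondrial reads, 7254 transcripts had enough reads to be tested. Of the 1159 and the 680, 9.40% and 2.06% differed steadily both in these cells and in the others. Transcripts not tested in a class counted as not differing, so these low shares partly reflect a lack of reads.

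The 6 unnamed transcripts with the largest folds on the higher side were taken from steady differences read in at least 25% of positive cells. Reads in many positive cells, and in a smaller share of negative ones, thus follow from the choice. Lack of a name in the study annotation was common, since 6.04% of the steadily higher transcripts had one. Among the 6, dd_16294 was read in the most negative cells, 7 of 22. The contig dd_11280 had 0, 10.6 and 1008 CPM at the lowest, median and highest in positive cells, where 22 of 39 had a read. In negative cells its highest value was 15.5 CPM, in the only 1 of 22 with a read, and its summed level was 186 CPM in positive cells and 0.412 CPM in negative cells, a ratio of 450 (154 to 2186). The contig dd_21356 had a median of 5.32 CPM and a highest value of 1228 CPM in positive cells, 20 of which had a read, and no read in any negative cell. Its level of 103.3 CPM was at least 251-fold higher, taking 3 reads over the negative set as the limit of a count of 0. Reads of both contigs were found in 15 positive cells. Each was read in a large part of the 39 cells, and whether they met more often than that alone would give was not tested.

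A further 3 unnamed contigs had no read in any negative cell. The contig dd_35872 was read in 14 positive cells, with a highest value of 294 CPM, and was at least 99.8-fold higher. The contig dd_13803 was read in 11 positive cells, up to 308 CPM, and was at least 136.5-fold higher. The contig dd_12312 was read in 10 positive cells, up to 2359 CPM, where 1 cell gave 41.03% of its reads, and was at least 204-fold higher. The groups overlapped at 0 for each of them, because most positive cells had no read either. The contig dd_16294 differed less cleanly: 19 positive cells and 7 negative cells had a read, with summed levels of 238 CPM and 4.67 CPM.

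Of the transcripts with a name, taken from the closest protein in the annotation, PCDH11X (dd_11579), a protocadherin of the cell surface, was read in the most positive cells of the 10 largest folds. Its levels were 0, 67.8 and 646 CPM at the lowest, median and highest in positive cells (26 of 39 with a read), against 0, 0 and 984 CPM in negative cells (6 of 22). The highest single value lay in a negative cell, although the summed level of 254 CPM in positive cells was 10.2-fold that of 24.99 CPM in negative cells (8.75 to 11.9). After thinning, PCDH11X was read in 58.97% of positive cells (42.1 to 74.4%) and 27.3% of negative cells (10.7 to 50.2%). Without the collagen-poor cells its log2 fold was 3.01, but it no longer met the bar of a steady difference.

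Several of the other names belong to signaling and membrane proteins, as these are known from vertebrates. SHB (dd_2710), an SH2-domain adaptor of receptor tyrosine kinases, was read in 22 of 39 positive cells, up to 1014 CPM, and in 3 of 22 negative cells, up to 302 CPM, a 14.4-fold difference in summed level (11.4 to 18.3). KCNN3 (dd_14006), a calcium-activated potassium channel, was read in 17 positive cells, up to 737 CPM, and in 2 negative cells, at up to 371 CPM, an 18.2-fold difference (13.8 to 24.6). RGS8 (dd_5751), a regulator of G protein signaling, had 22.9 CPM in positive cells and 2.06 CPM in negative cells, with reads in 13 and 4 cells. PDZ ring finger protein 4 (dd_5781) had 164 CPM in positive cells and 19.1 CPM in negative cells, with reads in 22 and 4 cells. Both it and PCDH11X were read in 19 positive cells, but each was read in most positive cells, and their overlap was not tested.

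Smad1 (dd_6877), which carries BMP signals from receptor to nucleus, was read in 24 of 39 positive cells and 6 of 22 negative cells. Its levels were 0, 4.58 and 477 CPM at the lowest, median and highest in positive cells, against 0, 0 and 27.5 CPM in negative cells. The summed level was 9.65-fold higher (6.20 to 15.8), and the log2 fold was 2.89 with all negative cells and 2.90 without the collagen-poor ones. ADAMTSL3 (dd_3852), a secreted glycoprotein of the extracellular matrix, had 0, 22.4 and 1125 CPM in positive cells (23 with a read), against 0, 0 and 206 CPM in negative cells (6 with a read). The ranges of both genes overlapped, and it was the upper part of the range that positive cells filled.

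The remaining names among the 10 were those of general cell machinery or of neurons. UNC13B (dd_11981), a protein that prepares synaptic vesicles for release, had 51.1 CPM in positive cells and 1.24 CPM in negative cells, with reads in 15 and 2 cells. LRSAM1 (dd_10841), a ubiquitin ligase, had 55.3 CPM in positive cells and 3.02 CPM in negative cells, with reads in 16 and 2 cells. CRNKL1 (dd_4749), a spliceosome component, had 91.1 CPM in positive cells and 3.43 CPM in negative cells, with reads in 11 and 4 cells. UNC13B was also the only neuron marker of the 6 tested (16.7%) that differed steadily, beside 8.68% steadily higher over all transcripts. It had been named for its large fold, so this is no separate result on neuron markers, and 6 of 12 had too few reads.

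**Figure D2:**
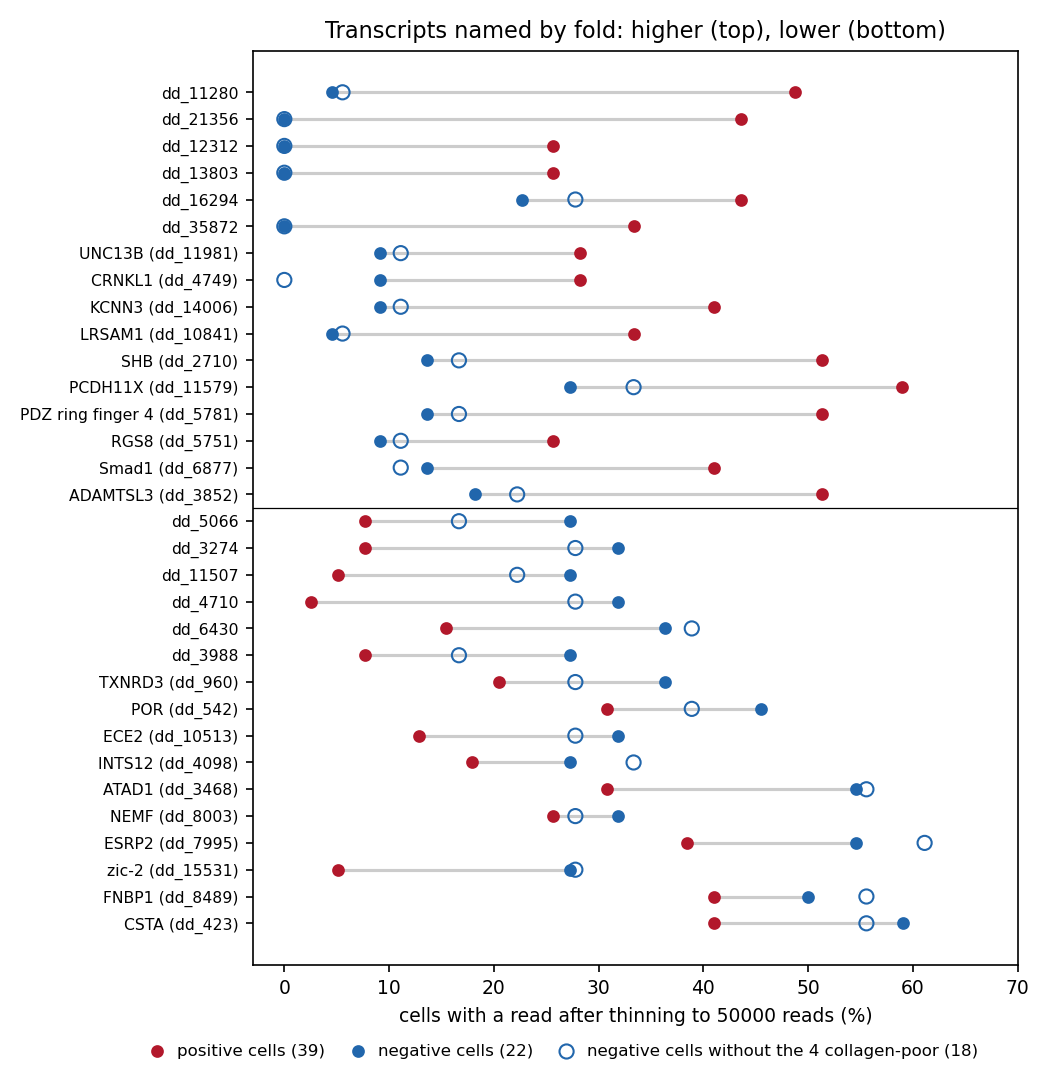
Share of cells with a read after thinning to 50000 reads (%) for the 16 transcripts named by fold on the higher side (top) and the 16 on the lower side (bottom), in positive cells (red, n = 39), negative cells (filled blue, n = 22) and negative cells without the 4 collagen-poor ones (open blue, n = 18). The red points reach between 25.6% and 58.97% at the top and lie left of the blue points at the bottom. The transcripts were chosen to be read in at least 25% of cells of the higher set. They also had to be read in a larger share of cells there than in the lower set. The lowest share at the top and the order of red and filled blue points thus follow from the choice.

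On the lower side the largest folds split into those carried by the collagen-poor cells and those that were not. The contig dd_5066 had 0.440 CPM in positive cells and 149.4 CPM in negative cells, but 0.840 CPM in the 18 other negative cells, so its log2 fold of -6.71 became -0.35 without the collagen-poor cells. ZFHX3 (dd_7033), a zinc finger and homeodomain transcription factor, was read in no positive cell and in 4 negative cells, all of them collagen-poor. For agat-1 itself, 1.41 CPM in positive cells stood against 1717 CPM in all negative cells and 0.336 CPM in the 18 collagen-rich ones. These differences were thus carried by the collagen-poor cells, and for agat-1 by the 3 of those 4 that had a read.

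Other transcripts were lower in positive cells with and without those 4 cells. ESRP2 (dd_7995), a regulator of splicing in epithelia, had 0, 0 and 1259 CPM at the lowest, median and highest in positive cells, against 0, 16.003 and 2082 CPM in negative cells. Its log2 fold was -1.98, and -2.18 without the collagen-poor cells. The zinc finger transcription factor gene zic-2 (dd_15531) was read in 4 of 39 positive cells, up to 625 CPM, and in 6 of 22 negative cells, up to 1418 CPM. Its summed levels were 23.4 CPM in positive cells and 91.2 CPM in negative cells, 5 of the 6 negative cells were collagen-rich, and the log2 fold was -1.92 with and -2.15 without the others. CSTA (dd_423), an inhibitor of cysteine proteases, had medians of 11.8 CPM in positive cells and 51.98 CPM in negative cells and was 2.995-fold lower. The unnamed contig dd_6430 was read in 7 positive and 9 negative cells and was 15.4-fold lower. The unnamed contigs dd_3274, dd_11507, dd_4710 and dd_3988 were read in 2 to 4 positive cells and 6 to 8 negative cells, were between 17.7-fold and 38.7-fold lower, and did not differ steadily without the collagen-poor cells.

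The redox and secretory genes on the lower side depended more on the collagen-poor cells. TXNRD3 (dd_960), a thioredoxin reductase, was 6.66-fold lower with all negative cells and 3.65-fold lower without the collagen-poor ones. POR (dd_542), the electron donor of cytochrome P450 enzymes, was 5.35-fold and 3.09-fold lower, and in the second case it no longer differed steadily. ECE2 (dd_10513), a metalloprotease that processes peptides, had 9.15 CPM in positive cells and 51.4 CPM in negative cells, with reads in 6 and 9 cells. The other names of this side were INTS12, ATAD1, NEMF and FNBP1, all between 3.36-fold and 5.21-fold lower. Among the 11 positive and 5 negative cells with under 5% mitochondrial reads, the log2 fold was on the other side of 0 for dd_16294 (-1.13), PCDH11X (-0.02), dd_6430 (1.10), INTS12 (6.17), ATAD1 (0.39), zic-2 (0.47) and FNBP1 (0.29), with few cells behind each value.

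**Figure D3:**
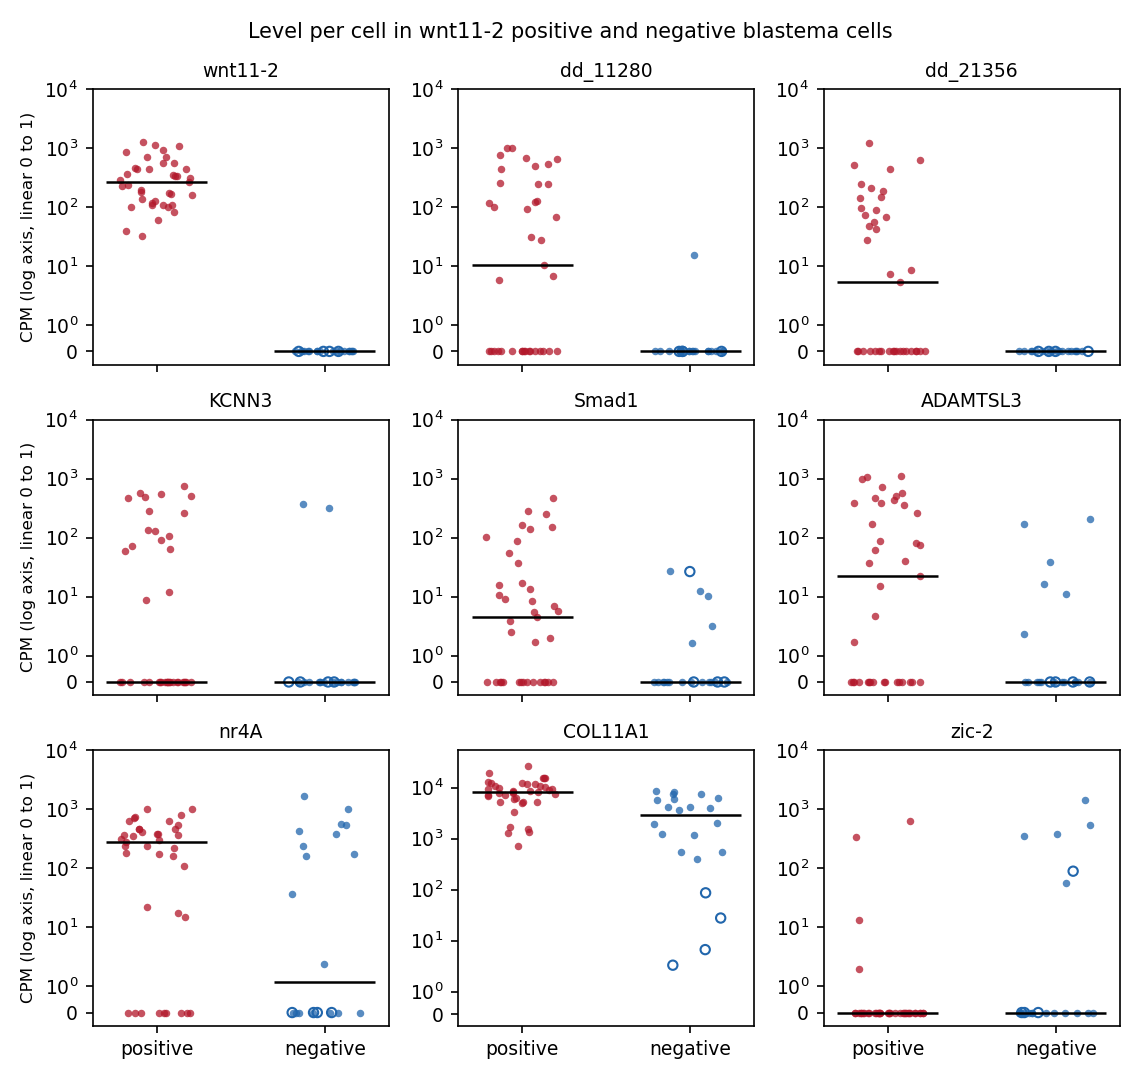
Level per cell (CPM, log axis, linear from 0 to 1) of 9 transcripts in positive cells (red, n = 39) and negative cells (blue, n = 22; the 4 collagen-poor cells are open circles); horizontal bars mark medians. Apart from wnt11-2, which made the split, and COL11A1, which was read in every cell, many cells of both sets sit at 0, and the sets differ in how many cells lie above it.

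Among genes of the Wnt pathway, 14 of 17 were tested and 2 differed steadily, both higher in positive cells and both coding for secreted Wnt inhibitors. The background was 8.68% higher and 5.09% lower over all transcripts, and the median log2 fold of the 14 was 0.71, or 0.44 without the collagen-poor cells, against -0.09 and 0.10 over all transcripts. The inhibitor sfrp1 (dd_13985) had 65.5 CPM in positive cells and 16.3 CPM in negative cells, with reads in 11 and 4 cells, and it no longer differed steadily without the collagen-poor cells. The extracellular Wnt deacylase notum (dd_24180), a gene of the anterior pole, had 13.03 CPM in positive cells and 0.687 CPM in negative cells, with reads in 5 and 1 cells, and 45.95% of its reads in positive cells came from 1 cell. Receptor genes had no common direction. Reads of ryk (dd_12594) were found in 8 positive cells and 1 negative cell, at 24.2 CPM and 3.57 CPM, and ror (dd_7911) had 194 CPM in positive cells and 188 CPM in negative cells. The Frizzled gene fz5/8-4 (dd_11823) had 23.1 CPM in positive cells and 96.4 CPM in negative cells, where 56.1% of the reads came from 1 cell, while fzd-5/8-2 (dd_17168) was read in 2 positive cells only. The intracellular effector beta-catenin-1 (dd_2688) had 197 CPM in positive cells and 189 CPM in negative cells, a ratio of 1.04 (0.975 to 1.12).

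The Wnt pathway transcript Frz-d (dd_11650) was read in every positive cell, with 135.1, 2142 and 6245 CPM at the lowest, median and highest in positive cells, against 0, 1108 and 4353 CPM in negative cells. It was read in 19 of 22 negative cells as well, and the ranges overlapped over most of their length. Its log2 fold of 0.61, or 0.36 without the collagen-poor cells, did not pass the fold. The ligand gene wnt1 had too few reads to be tested.

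Genes of the poles and of head patterning were rare on both sides. The posterior pole gene islet1 (dd_8820) had no read in positive cells and reads in 2 negative cells, and its relative islet2 (dd_35379) had 2.46 CPM in positive cells and 55.9 CPM in negative cells, with reads in 3 cells of each. The anterior pole gene foxD was read in no positive cell and in 1 negative cell. Follistatin (dd_9584), an activin inhibitor, was read in 13 positive cells and 3 negative cells, at 45.8 CPM and 25.8 CPM. The FGF receptor-like genes ndl-4, ndk and ndl-5, which mark anterior regions, were read in 2, 1 and 1 positive cells and in 1, 1 and 3 negative cells, so their lower summed levels rest on single cells. None of the 4 members of that list differed steadily, and all 4 had a log2 fold above 0 in uninjured tails split the same way.

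The study compared pole cells with non-pole cells and listed posterior pole genes from these same libraries, so the list, of which 197 contigs were matched here, is not independent of them. Of its tested members, 15 (10.5%) were higher and 5 (3.50%) lower in positive cells, beside 8.68% and 5.09% over all transcripts, and their median log2 fold was -0.14. Without the collagen-poor cells the shares were 13.3% and 2.22%, beside 10.3% and 3.39%. Of the anterior pole genes listed from uninjured and from regenerating animals, 13 (13.8%) and 9 (17.6%) of the tested members were higher, with medians of 0.23 and 0.39. The members lower were 3.19% and 3.92%. Without the collagen-poor cells 13.3% and 14.6% were higher, beside 10.3%, and 4.44% and 6.25% lower, beside 3.39%. The medians were then 0.23 and 0.38. The transcription factor gene nr4A (dd_12229), a nuclear receptor gene expressed in muscle toward both body ends, was read in 30 of 39 positive cells and in 11 of 22 negative cells, none of the 4 collagen-poor ones among them. Its levels were 0, 282 and 1025 CPM at the lowest, median and highest in positive cells, against 0, 1.18 and 1651 CPM in negative cells. After thinning the shares were 76.9% (60.7 to 88.9%) in positive cells and 45.5% (24.4 to 67.8%) in negative cells. The summed level was 1.68-fold higher (1.58 to 1.79) and did not pass the fold, and without the collagen-poor cells the ratio was 1.37. The list of 579 contigs of nr4A-positive muscle had a median of 0.01 over 549 tested members. Of these, 62 (11.3%) were higher and 38 (6.92%) lower, beside 8.68% and 5.09%. Without the collagen-poor cells the shares were 10.02% and 5.01%, beside 10.3% and 3.39%, and the median was 0.05.

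The counts of this paragraph stand beside 8.68% higher and 5.09% lower over all transcripts. All 7 tested genes of BMP and activin signaling had a log2 fold above 0, with a median of 1.73, or 1.45 without the collagen-poor cells, and 2 (28.6%) were steadily higher. In uninjured tails split the same way, 6 of 8 tested were below 0, with a median of -0.61. Without the collagen-poor uninjured cells, 5 of 6 tested were above 0, with a median of 1.79. Beside Smad1, the receptor gene ACVR1 (dd_7151) differed steadily, with 19.98 CPM in positive cells and 0.275 CPM in negative cells, from 8 cells and 1 cell with a read. Its ratio of 72.8 (19.9 to 604) rests on 2 negative reads. The BMP ligand gene (dd_17402) had 51.8 CPM in positive cells and 14.97 CPM in negative cells, with reads in 6 and 3 cells, and the inhibitor noggin1 (dd_15423) was read in 3 positive cells only. The co-Smad gene smad4 (dd_1923) had 117.9 CPM in positive cells and 83.4 CPM in negative cells. Of the axon guidance genes, slit1 (dd_12111), a secreted midline cue, was the only one of 13 (7.69%) to differ steadily, a share near that over all transcripts, with 83.9 CPM in positive cells and 7.42 CPM in negative cells from 7 cells and 1 cell with a read. Among 10 tested cadherin contigs, PCDH11X and further contigs of PCDH11Y (dd_15362) and FAT4 (dd_19860) were steadily higher, read in 5 and 3 positive cells and in 1 and 0 negative cells, and a pcdh9 contig (dd_7930) was lower through 3 collagen-poor cells. Of the 5 Notch pathway genes only MIB2, a ubiquitin ligase, did, and it was lower, but not without the collagen-poor cells. Neither of the 2 hedgehog pathway genes passed the fold.

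Collagen and contractile transcripts of the muscle program were somewhat higher in positive cells, with ranges that overlapped. The share of steadily higher members was 15.4% for collagens, 14.3% for other matrix proteins and 21.4% for contractile proteins, beside 8.68% over all transcripts. Without the collagen-poor cells the shares were 7.69%, 21.4% and 0%, beside 10.3%. The larger shares of collagens and contractile proteins were thus not kept without those cells. They were set apart by low levels of these same collagen contigs, were also low in contractile reads, and all lay in the negative set. Smaller differences without them follow from that choice, so nothing is concluded from the drop. All 13 collagen contigs had a log2 fold above 0 with a median of 0.74, and 12 of 13 did without the collagen-poor cells, with a median of 0.45. The fibrillar collagen COL11A1 (dd_402) had 704, 8253 and 26994 CPM at the lowest, median and highest in positive cells, against 3.30, 2840 and 8572 CPM in negative cells. Its summed level was 2.34-fold higher (2.31 to 2.37), and 1.92-fold higher without the collagen-poor cells. The contig col21a1 (dd_9565) was read in 26 positive cells and 10 negative cells and had 1388 CPM and 464 CPM, which was the other steady difference among collagens. Of 14 tested genes of other matrix proteins, ADAMTSL3 and MXRA5 (dd_13903) were steadily higher, the last with 30.7 CPM in positive cells and 6.73 CPM in negative cells from 8 and 3 cells with a read. The 14 contractile contigs had a median of 1.01, with 12 above 0 and 3 steadily higher. Without the collagen-poor cells all 14 were above 0 with a median of 0.73, but none passed the fold. The myosin heavy chain MhcA (dd_432) had 3194, 20999 and 60338 CPM in positive cells, against 3.76, 10483 and 25552 CPM in negative cells, and the log2 fold was 1.13 with and 0.84 without the collagen-poor cells.

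Transcription factor genes were mostly read in few cells. Of 31 listed, 20 were tested, 2 (10%) were steadily higher and 3 (15%) lower (zic-2, islet2 and ZFHX3), beside 8.68% and 5.09% over all transcripts, and their median was -0.86, or -0.49 without the collagen-poor cells. The homeobox gene nkx1-1 (dd_19327), required for circular muscle in planarians, was read in 9 of 39 positive cells, up to 2102 CPM, and in 3 of 22 negative cells, up to 926 CPM. Its log2 fold was 2.58, and 4.31 without the collagen-poor cells, since 77.7% of the negative reads came from 1 cell and 1 of the 3 negative cells was collagen-poor. The gene myoD (dd_12634), required for longitudinal muscle, had 161 CPM in positive cells and 108.3 CPM in negative cells, with reads in 11 and 5 cells, and its log2 fold was 0.57. IRX2 (dd_11500), an Iroquois homeobox gene, was read in 20 positive cells and 7 negative cells, at 328.5 CPM and 139.1 CPM. Among markers of other cells, none of 8 division and stem cell genes and none of 5 tested cilia genes differed steadily. Of 12 housekeeping genes only NDUFB9 (8.33%), a subunit of mitochondrial complex I, did, being 2.92-fold lower, beside 5.09% lower over all transcripts. Its log2 fold was -1.50 with and -1.51 without the collagen-poor cells, but without them it no longer differed steadily.

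**Figure D4:**
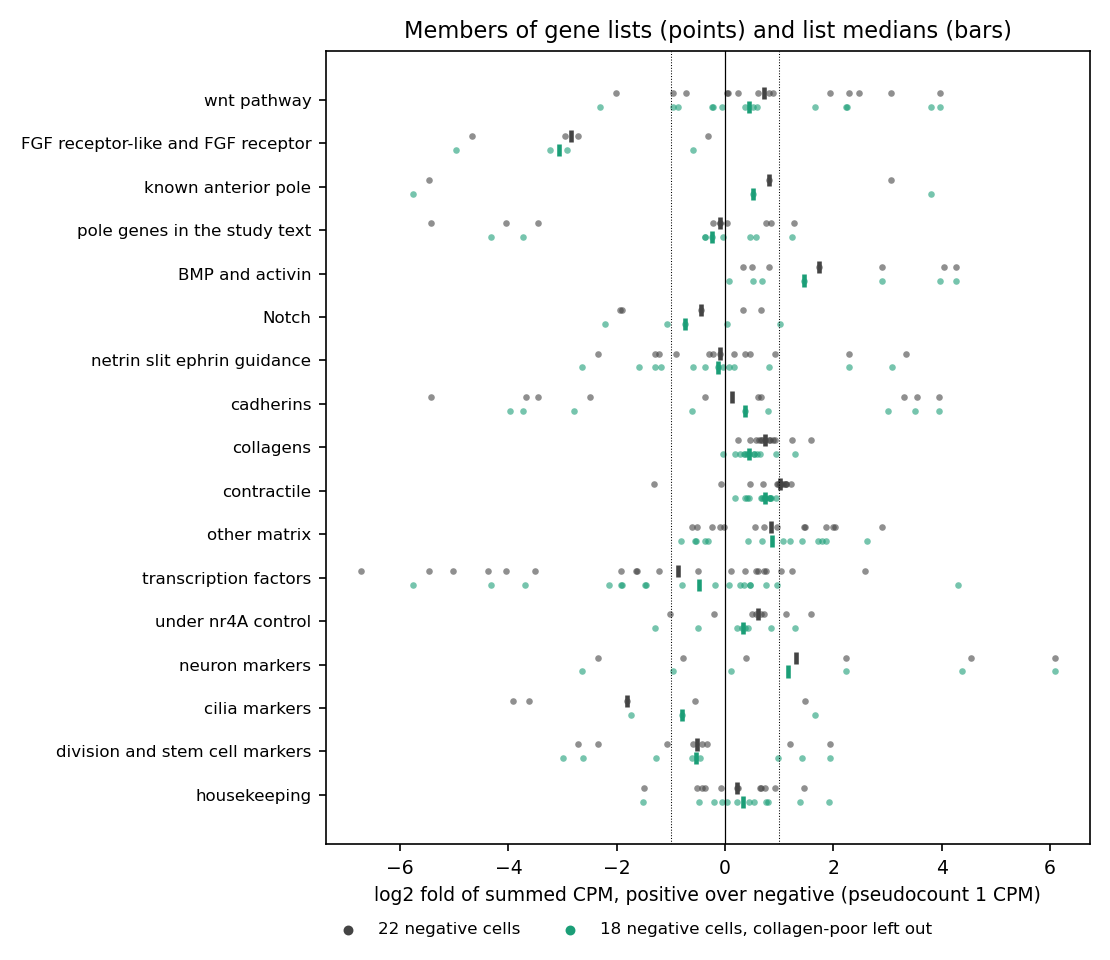
Log2 fold of summed CPM (positive over negative, pseudocount 1 CPM) for the tested members of 17 gene lists, with all 22 negative cells (dark) and with the 18 that are not collagen-poor (green); bars mark list medians and dotted lines a log2 fold of -1 and 1. Most collagen and contractile contigs lie close together above 0, with list medians of 0.74 and 1.01 that become 0.45 and 0.73. Members of the other lists scatter on both sides, except BMP and activin (all above 0) and FGF receptor-like (all below 0).

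The cells in between were not used to choose any transcript. Counting how many of the 16 transcripts with the largest folds on the higher side had a read, positive cells had 2, 7 and 13 at the lowest, median and highest, in-between cells 1, 4 and 9, and negative cells 0, 2 and 6. The values of the first and last set follow from how the transcripts were chosen. The counts of the in-between cells lay between the others with overlap on both sides, and 2 of these 8 cells were collagen-poor. Transcripts chosen to part the positive from the negative cells tend to place any other cells between them, so nothing is concluded from this position. For the 16 transcripts of the lower side the counts were 1, 4 and 9 in positive cells, 3, 5 and 9 in in-between cells, and 3, 6 and 13 in negative cells. Uninjured cells, also not used in the choice, showed no such order: of the higher transcripts 2, 5 and 11 were read in positive and 0, 5 and 8 in negative uninjured cells, and of the lower ones 1, 4 and 11 against 1, 3.5 and 14.

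The same split was made in uninjured tails, in cells that share no library with the blastema. After 6 pairs of near-identical libraries had been summed, 53 cells remained, of which 25 were positive and 24 negative, and 12 of these negative cells were collagen-poor. Of 17055 transcripts tested there, 728 (4.27%) were steadily higher and 1058 (6.2%) lower, and without the collagen-poor cells 1101 of 15398 (7.15%) and 185 (1.2%). Of the blastema transcripts on the higher side, 1089 were also tested in uninjured tails and 616 (56.6%) were higher there too, beside 49.4% of all 12302 transcripts tested in both. Of 670 on the lower side, 393 (58.7%) were lower there too, beside 50.6%. Without the collagen-poor cells of either condition, 751 of 1189 (63.2%) were higher, beside 62.04% of all 11119, and 157 of 408 (38.5%) were lower, beside 37.96%. The directions in the 2 conditions thus had little more in common than those of any transcripts once the cells poor in collagen were left out.

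**Figure D5:**
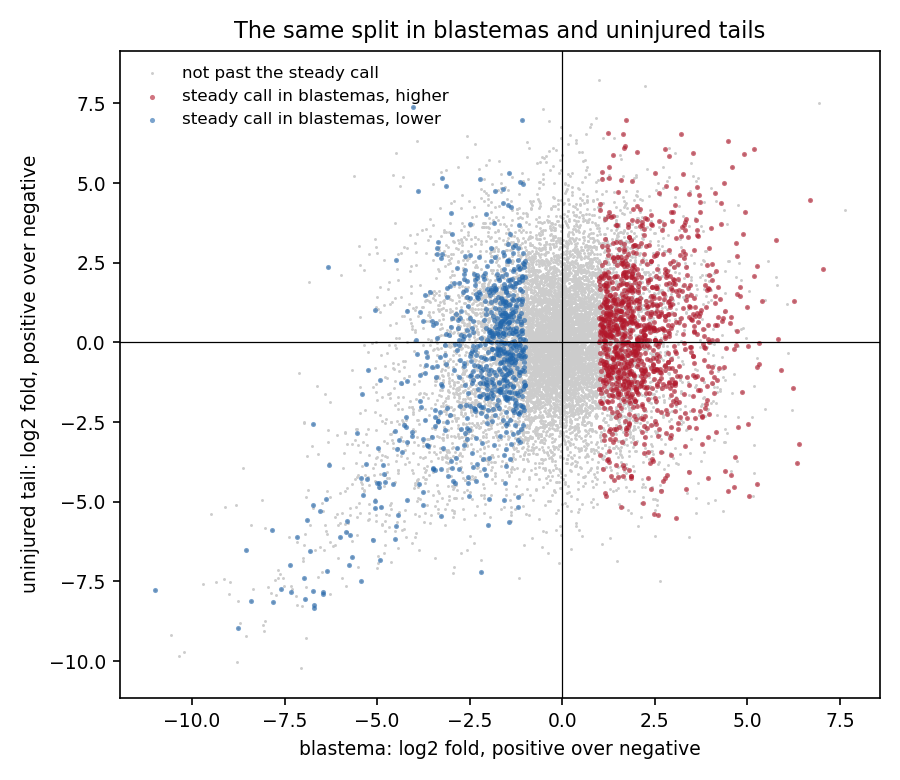
Log2 fold of summed CPM (positive over negative) in blastemas (x axis) and in uninjured tails (y axis) for the 12302 transcripts tested in both, all cells included; red and blue points differed steadily in blastemas. Red points spread above and below 0 on the y axis (56.6% above 0), and the blue points at the lower left include those carried by the collagen-poor cells.

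Individual transcripts held in both conditions or turned round. The contig dd_21356 was read in 6 positive uninjured cells and 1 negative one, at 34.7 CPM and 0.595 CPM. KCNN3 was read in 8 positive and 5 negative uninjured cells, at 104.1 CPM and 7.73 CPM, and its log2 fold was 3.59 there and 4.01 in blastemas. UNC13B differed steadily in uninjured tails only without the collagen-poor cells, with a log2 fold of 2.73. In contrast, SHB had 70.7 CPM in positive and 200 CPM in negative uninjured cells, and nkx1-1 had 0.273 CPM and 53.3 CPM, the last from 1 cell. ATAD1, lower in positive blastema cells, was higher in positive uninjured cells, with 39.003 CPM and 7.86 CPM from 11 and 3 cells. The gene myoD was read in 7 positive and 3 negative uninjured cells, at 61.3 CPM and 0.198 CPM. The difference between the conditions was not tested for any of these, since each set is cells of 1 sample.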

How the data were processed

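Single cells were isolated and sequenced by the authors with Smart-seq2. The deposited count table holds raw read counts per contig and cell; per the submitters' processing notes, CASAVA 1.7.0, Trimmomatic 0.32 and Bowtie were used. Not given in the sources used here is how reads were counted. A second deposited table holds the authors' log2 fold estimates and Z scores of pole against non-pole cells; these were not used, only its list of contigs. The contigs used held 36.4% of counted reads and the mitochondrial contig 19.9%; 6 of 26566 entries that are not on that list (mitochondrial RNA, ribosomal RNA, very abundant contigs and unidentified) were left out. Entries of 1 contig number were summed, which gave 26399 transcripts. No columns of other series were present (0). Cells were sorted singly and no doublet filter was applied. Libraries were compared pairwise by chi-square, and 6 pairs with under 10 per degree of freedom, all in uninjured non-pole cells, were summed.

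Cells with at least 50000 reads were split by wnt11-2, reads were summed per set and scaled to CPM, and intervals were exact (conditional binomial for ratios, Clopper-Pearson for shares). Shares of cells were taken after thinning to 50000 reads. Named transcripts are, in each direction, the 6 unnamed and 10 named ones with the largest fold among steady differences read in at least 25% of cells of the higher set; all steady members of each list and up to 4 others; all members of the Wnt, pole and FGF receptor lists; and myoD and nkx1-1. Members and lists were chosen with earlier results of these data known. Python 3.11.15, numpy 2.4.6, scipy 1.17.1 and pandas 2.3.3 were used, and R 4.3.3 with edgeR 4.0.16 for TMM factors; the comparison was checked on simulated counts with 200 changed transcripts. Alternatives were other scalings, pseudocounts, read filters, wnt11-2 and depth thresholds and sets of cells.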

Additional observations from a re-analysis of the deposited data

How the results depend on the processing

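Of 56 recomputed counts of transcripts past the fold or steadily different, 46 stayed within 1.5 times the reported count. Of 1898 recomputed log2 folds of the 140 named transcripts, 1116 stayed within the interval for counting error, 774 moved beyond it and 8, all of steadily different transcripts, turned round; of the 774, 46 were of other transcripts and changed sign. A pseudocount of 10 CPM gave 1197 higher and 1913 lower transcripts past the fold, of which 505 and 391 were steady; a minimum of 100 summed reads gave 1875 and 2447 past the fold. Leaving out the collagen-poor cells gave 423 steadily lower transcripts. The split by mitochondrial share, a second thinning draw and the uninjured sets without collagen-poor cells were chosen after seeing the data. The 16 cells under 5% mitochondrial reads gave 2313 lower transcripts past the fold and 721 higher and 204 lower steady ones, with 7254 transcripts tested. List medians moved there to 4.98 for BMP and activin, 6.06 for Notch, 3.33 for guidance, 1.28 for collagens, 4.69 for other matrix, 1.64 for transcription factors, -6.13 for cilia, -0.70 for housekeeping, 1.94 for the posterior pole list, 0.68 and 2.06 for the uninjured and regenerating anterior pole lists and 0.39 for nr4A-positive muscle. In those cells the fold turned round for dd_16294 (-1.13), PCDH11X (-0.023), dd_6430 (1.10), INTS12 (6.17), ATAD1 (0.39), zic-2 (0.47), FNBP1 (0.29) and dd_2972 (-0.79); the cause was not tested. The collagen median was 0.45 without collagen-poor cells and 0.98 without the deepest cell of each set, and the contractile median was 1.16 with TMM scaling and 1.15 with median ratios. These scalings moved the median of all transcripts by 0.14 and 0.13 on the log2 scale, leaving out collagen-poor cells by 0.19. Leaving out only the uninjured collagen-poor cells gave the same direction for 62.3% of higher and 37.9% of lower transcripts, beside 61.9% and 38.1% of all. No paired analysis was possible because the labels number no replicates (cells were numbered in accession order only) and each set is cells of 1 sample. Sparse reads limit every single transcript: most were read in few cells of either set.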

Other observations

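The 5 blastema pole cells express wnt1, and 4 of them also had wnt11-2 reads. They had few or no reads of the 6 unnamed contigs with the largest folds on the higher side. Of the 10 named transcripts of that side, only PCDH11X and Smad1 are given here, and they differed in this. None of the 5 had a read of dd_11280, dd_12312, dd_13803 or dd_16294, and 1 each had reads of dd_21356 and dd_35872. PCDH11X was read in 1 pole cell, at 0.274 CPM summed over the 5, against 254 CPM in positive non-pole cells. Smad1 was read in all 5, with 178 CPM, against 27.8 CPM in positive non-pole cells and 2.88 CPM in negative ones. Follistatin was also read in all 5 pole cells, with 1161 CPM, and myoD with 589 CPM. The protocadherin contig dd_14613, annotated as pcdh9, had 1210 CPM in the 5 pole cells, no read in the 39 positive non-pole cells and reads in 1 of 22 negative cells. Frz-d had 2218 CPM in pole cells, close to the 2395 CPM of positive non-pole cells. With 5 cells of 1 sample these values are a description.

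The 8 in-between cells were not alike in identity either. Of these, 2 were collagen-poor and had agat-1 reads, with up to 9692 CPM. Their summed level of KCNN3 was 196 CPM from 3 cells, above the 127.5 CPM of positive cells, while dd_21356, dd_12312 and dd_35872 were read in none of them.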
